A study of Homo sapiens with 2 samples.

Results

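The microRNAs (miRNAs) miR-532, miR-500, miR-362, miR-501, miR-660 and miR-502 are encoded close together inside the chloride channel gene CLCN5 on the human X chromosome. Their assays were chosen by name, and each name stood on a single assay, so 6 of the 365 miRNA assays are described here. The samples were CL1-5 cells stably expressing the secreted angiopoietin-like protein ANGPTL1 and CL1-5 cells carrying the empty vector pcDNA3.1, with 1 RNA sample of each. CL1-5 is an invasive human lung adenocarcinoma line, and G418 selection lasted 4 weeks in both, per the labels' protocols. Whether the cells were a pool or a single clone is not given in the sources used here. Levels were read by quantitative reverse-transcription PCR on a TaqMan Low Density Array. No replicates exist, so the values below carry no error, no test was made, and each difference is one between these 2 samples.

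A miRNA is cut as a short hairpin from a longer transcript, and either arm of the hairpin (5p or 3p) can yield a mature miRNA of about 22 bases. The mature miRNA guides a silencing complex to messenger RNAs, mainly through its seed, bases 2 to 8. Hairpins that lie in introns of 1 host gene can share a precursor transcript with each other and with the host. CLCN5 encodes a chloride/proton exchanger of endosomes, known from the kidney proximal tubule and from Dent disease. CLCN5 messenger RNA was not measured on the card.

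In RefSeq's GRCh38.p14 annotation the hairpins lie on the plus strand at chrX:50003148-50014683, a stretch of 11536 bases inside CLCN5 (chrX:49922596-50099230). From 5′ to 3′ the order is MIR532, MIR188, MIR500A, MIR362, MIR501, MIR500B, MIR660 and MIR502. MIR532 and MIR188 form a first pair, and MIR500A follows after a gap of 4842 bases. MIR362 begins 449 bases after the end of MIR500A, and MIR501 lies 693 bases beyond MIR362. MIR660 follows MIR500B after 2490 bases, and MIR502 starts 1260 bases after MIR660. No assay named miR-188 was found among the 365 miRNA assays, so miR-188 is not analysed here. The assay name miR-500 does not separate MIR500A from MIR500B.

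All 6 names matched a RefSeq hairpin gene, with 11 mature arms in the table used here. The 5p arm of miR-660 had no entry there, so it is neither shown nor compared. None of the assay names gives an arm, so these 11 arms are shown. The arms on the 5p side are shown because 4 of the 5 printed carry the same short stretch. Capitals mark the seed.

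miR-532-5p: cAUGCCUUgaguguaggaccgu
miR-500a-5p: uAAUCCUUgcuaccugggugaga
miR-362-5p: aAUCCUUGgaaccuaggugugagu
miR-501-5p: aAUCCUUUgucccugggugaga
miR-502-5p: aUCCUUGCuaucugggugcua

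The letters AUCCUU, searched on the mature strand only, occur in the 5p arms of miR-500a, miR-362, miR-501 and miR-502, and also in that of miR-500b. Of 2370 human mature miRNAs in the same table, 17 (0.717%) hold these letters. The stretch starts at base 3 in miR-500a-5p, at base 2 in miR-362-5p and miR-501-5p, and at base 1 in miR-502-5p. The 7-base seeds of the 5 arms printed above all differ, while the 5p arm of miR-500b has the same seed as miR-362-5p. On the 3p side, the following arms are shown for the same comparison.

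miR-532-3p: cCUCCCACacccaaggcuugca
miR-500a-3p: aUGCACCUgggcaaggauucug
miR-362-3p: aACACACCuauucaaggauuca
miR-501-3p: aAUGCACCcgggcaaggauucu
miR-660-3p: aCCUCCUGugugcauggauua
miR-502-3p: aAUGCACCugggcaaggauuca

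miR-501-3p and miR-502-3p have the same seed and differ by 2 base edits over their whole length. miR-500a-3p lies 3 edits from each of them, and its letters UGCACC start 1 base earlier, so its seed is shifted. UGCACC occurs in 13 of the 2370 mature miRNAs (0.549%). miR-532 stands apart in sequence: neither of its arms came closer than 10 edits to any other arm printed here. The close copies MIR500A and MIR502 are shown as whole hairpins, with both mature arms in capitals, because their assays also gave nearly the same cycle. Their hairpins, of 84 and 86 bases, lie 10 edits apart.

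MIR500A: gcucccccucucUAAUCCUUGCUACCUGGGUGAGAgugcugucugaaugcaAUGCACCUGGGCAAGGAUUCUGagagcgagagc
MIR502: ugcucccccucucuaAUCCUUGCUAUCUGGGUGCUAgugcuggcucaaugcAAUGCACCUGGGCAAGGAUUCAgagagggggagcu

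The threshold cycle (Ct) is the point in the PCR where the signal passes a fixed height, so a later Ct means less template. Delta Ct is the Ct of an assay minus that of the small nucleolar RNA RNU48 in the same sample. A miRNA counted as detected below cycle 35. RNU48 crossed at 21.21 in ANGPTL1 cells and 20.79 in the control, 0.42 cycles apart. Of the 365 miRNA assays, 145 were detected in both samples. As a check of the cell type, the epithelial miR-200c was detected in both samples, at cycle 30.77 in ANGPTL1 cells and 32.16 in the control (log2 ratio 1.82), while miR-200b and miR-205 stood at cycle 40 in both and miR-141 was later than 35 in both. Of 4 blood cell markers, 1 was detected, in the control alone, and both assays of the endothelial miR-126 were detected in both samples. The card has no assay for ANGPTL1 itself.

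All 6 miRNAs of the locus were detected in both samples. Each crossed the threshold later in ANGPTL1 cells, as did 79.3% of the 145 miRNAs detected in both samples. Relative to RNU48 each of the 6 was lower in ANGPTL1 cells by less than 2-fold. Their log2 ratios ran from -0.67 to -0.21 with a median of -0.39, which is 76.3% of the control level. The median over all 145 miRNAs detected in both samples was -0.01. None of the 6 was at least 2-fold higher or lower, against 7.59% higher and 4.83% lower among the 145. A log2 ratio below 0 was found for 6 of 6 members and for 50.3% of the 145. In bulk RNA, fewer cells with a miRNA and less of it per cell cannot be told apart.

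miR-532 and miR-660 crossed the threshold earliest of the 6 assays, whose efficiency was not measured. miR-532, reported in gastric cancer to repress the tumour suppressor RUNX3, had a Ct of 27.14 in ANGPTL1 cells and 26.25 in the control. Its delta Ct was 5.93 in ANGPTL1 cells and 5.46 in the control, a log2 ratio of -0.47, or 1.39-fold lower in ANGPTL1 cells. miR-660, described in lung cancer cells as a repressor of MDM2, had a Ct of 27.08 in ANGPTL1 cells and 26.44 in the control. Its delta Ct was 5.87 in ANGPTL1 cells and 5.65 in the control, and its log2 ratio of -0.22 corresponds to 85.9% of the control level. Their hairpins start 10093 bases apart, and their cycles differed from each other by 0.06 in ANGPTL1 cells and 0.19 in the control. The order of the pair was miR-660 first in ANGPTL1 cells and miR-532 first in the control.

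miR-362 and miR-501 took the middle places. miR-362, known for repression of the deubiquitinase CYLD, a brake on NF-kappaB signalling, had a Ct of 28.97 in ANGPTL1 cells and 28.06 in the control. Its delta Ct was 7.76 in ANGPTL1 cells and 7.27 in the control, a log2 ratio of -0.49 (1.40-fold lower). miR-501, studied in rodent neurons as a regulator of the glutamate receptor subunit GluA1, had a Ct of 30.47 in ANGPTL1 cells and 29.38 in the control. Its delta Ct was 9.26 in ANGPTL1 cells and 8.59 in the control. At a log2 ratio of -0.67, or 62.9% of the control level, miR-501 had the largest difference of the 6. It alone reached a 1.5-fold lower level in ANGPTL1 cells, a size that 19.3% of the 145 miRNAs reached in that direction. None of the 6 was at least 1.5-fold higher, against 16.6% of the 145.

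miR-500 and miR-502 were the scarcest. miR-500, which has also been described as a repressor of CYLD, had a Ct of 31.90 in ANGPTL1 cells and 31.27 in the control. Its delta Ct was 10.69 in ANGPTL1 cells and 10.48 in the control, and its log2 ratio of -0.21 was the smallest difference of the locus. miR-502, known for a binding site in the messenger RNA of the histone methyltransferase SETD8, had a Ct of 32.08 in ANGPTL1 cells and 31.35 in the control. Its delta Ct was 10.87 in ANGPTL1 cells and 10.56 in the control, a log2 ratio of -0.31. These 2 assays lay within 0.18 cycles of each other in ANGPTL1 cells and 0.08 in the control. MIR500A and MIR502 were printed above partly because of this closeness, so it is no separate result. The assays of miR-501 and miR-502, whose 3p arms were the closest of those compared, were 1.61 cycles apart in ANGPTL1 cells and 1.97 in the control. Whether the assay of miR-500 or miR-502 also reads the other miRNA, or miR-500b or miR-501, was not tested.

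**Figure D1:**
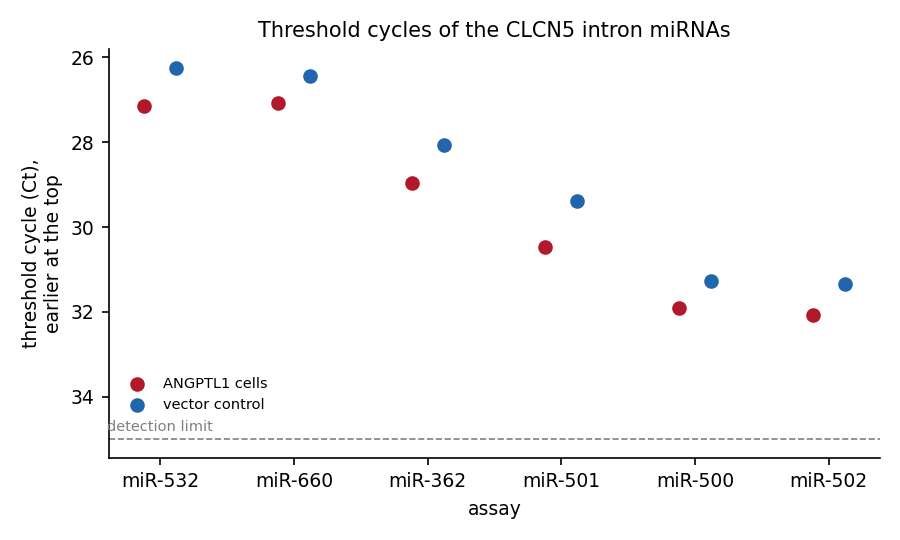
Threshold cycle (y axis, in cycles, earlier at the top) of the 6 assays (x axis, ordered by cycle in the control), with 1 point per sample and no replicates; the dashed line is the detection limit of 35. Each ANGPTL1 point lies below its control point, by 0.63 cycles for miR-500 up to 1.09 for miR-501, before any correction for RNU48. A later cycle in ANGPTL1 cells was found for 79.3% of the 145 miRNAs detected in both samples.

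By cycle, the 6 assays of the locus differed far more from each other than between the samples. From the earliest to the latest assay the delta Ct spanned 5.00 cycles in ANGPTL1 cells and 5.10 in the control. If every assay doubled its product each cycle with the same efficiency, which was not measured, the latest would be 32-fold scarcer than the earliest in ANGPTL1 cells and 34.3-fold in the control. On the same assumption, miR-532 and miR-660 together made up 81.9% of the sum of the 6 in ANGPTL1 cells and 80.3% in the control. miR-501 contributed 3.99% in ANGPTL1 cells and 4.89% in the control. The summed level was 1.30-fold lower in ANGPTL1 cells. From the third place on, the order by cycle was the same in both samples: miR-362, miR-501, miR-500, miR-502.

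The cycles of the assays did not follow position along the locus. Assays may differ in efficiency, which was not measured, so different assays are set side by side as cycles only. The miR-500 assay is placed at MIR500A here, although its name does not separate MIR500A from MIR500B. On that placement miR-500 and miR-362 are encoded 449 bases apart. They differed by 2.93 cycles in ANGPTL1 cells and 3.21 in the control. miR-660 and miR-502, the last 2 hairpins, were 5.00 cycles apart in ANGPTL1 cells and 4.91 in the control. miR-532 and miR-660, which are separated by 5 other hairpins, were 0.06 cycles apart in ANGPTL1 cells. The log2 ratios also showed no steady change from one end to the other, with -0.47 at MIR532, -0.21, -0.49 and -0.67 at MIR500A, MIR362 and MIR501, and -0.22 and -0.31 at MIR660 and MIR502.

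**Figure D2:**
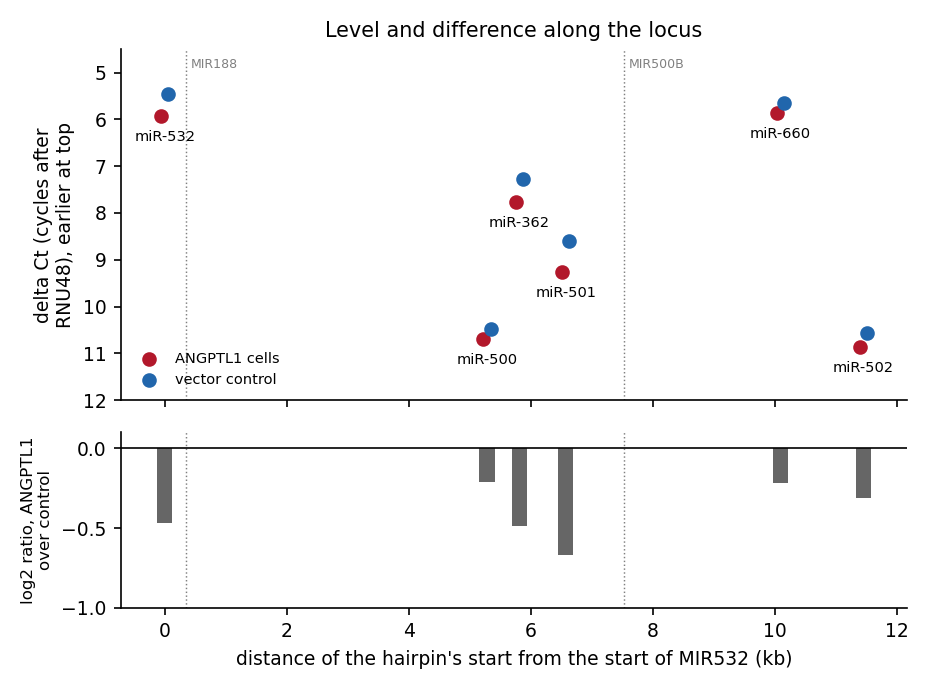
Delta Ct in each sample (upper panel, cycles after RNU48, earlier at the top) and log2 ratio of ANGPTL1 cells over the control (lower panel) against the distance of each hairpin's start from the start of MIR532, in kb; paired points are set slightly apart sideways for legibility, and dotted lines mark MIR188 and MIR500B, which have no assay of their own here. The points of miR-532 and miR-660 are the earliest, with later ones between and beyond, and the efficiency of the assays was not measured. Every bar of the lower panel lies between -0.67 and -0.21. The miR-500 assay is drawn at MIR500A, although its name does not separate MIR500A from MIR500B.

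The differences were close to each other. The log2 ratios of the 6 had a range of 0.46 and an SD over assays, not over samples, of 0.18. Among the 15 pairs of members, the median gap between log2 ratios was 0.20. Over all pairs of the 145 miRNAs the median gap was 0.59. Over pairs of the 65 other miRNAs whose mean Ct lay within the span of the members, it was 0.62. miR-532 and miR-362 differed by 0.02, miR-660 and miR-500 by 0.01, and the widest gap was that between miR-501 and miR-500. The pairs with the most similar difference were therefore not those with the most similar cycle. The latter were miR-532 with miR-660 in ANGPTL1 cells and miR-500 with miR-502 in the control.

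Other clusters of miRNAs encoded close together give a scale for this range. The growth-related polycistron that begins with miR-17 and ends with miR-92, with 7 assays detected in both samples, had a range of 0.43 and a median pairwise gap of 0.20, like the 6 described here, around a median log2 ratio of 0.01. The intron cluster of MCM7, with miR-106b, miR-93 and miR-25, had a range of 0.86 and a median of -0.62. In the cluster of miR-183, miR-96 and miR-182, 2 assays were detected in both samples and lay 1.20 apart. A range grows with the number of members, and no test of these differences was made.

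**Figure D3:**
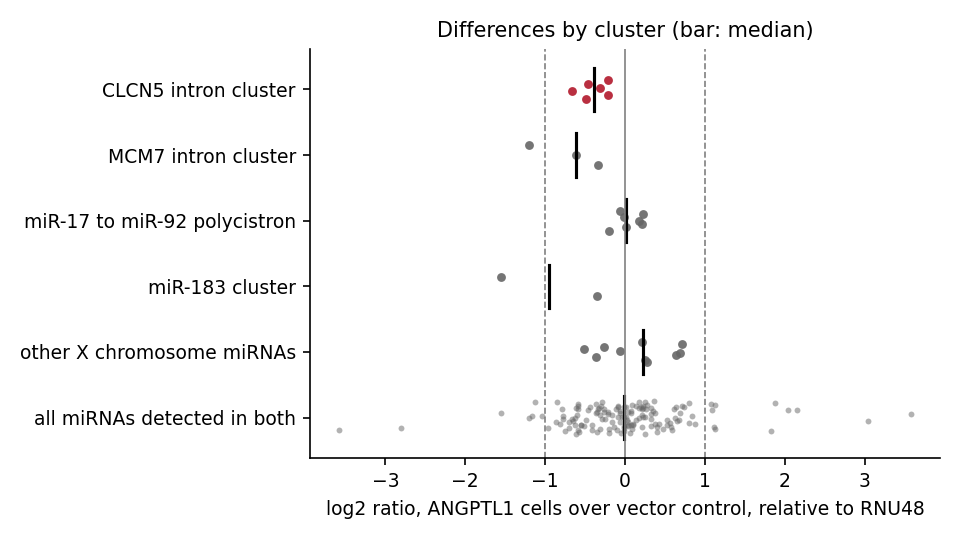
Log2 ratio of ANGPTL1 cells over the control relative to RNU48 (x axis) for miRNAs detected in both samples, 1 point per assay, by cluster; black bars are medians, the solid line is 0 and dashed lines mark 2-fold. The 6 members form a narrow group just left of 0 (median -0.39), inside the spread of all 145 miRNAs, and the miR-17 to miR-92 polycistron forms one of like width at 0.01.

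Within the whole set the 6 all lay below the median without standing at its low end. Counted from the lowest of the 145 log2 ratios, miR-501 ranked 18, miR-362 33, miR-532 34, miR-502 45, miR-660 52 and miR-500 53. Of the 139 other miRNAs detected in both samples, 30 (21.6%) had ratios within the span of the members, 17 lay below it and 92 above. The middle 50% of the 145 ratios ran from -0.41 to 0.33, and miR-532, miR-362 and miR-501 lay below that interval.

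**Figure D4:**
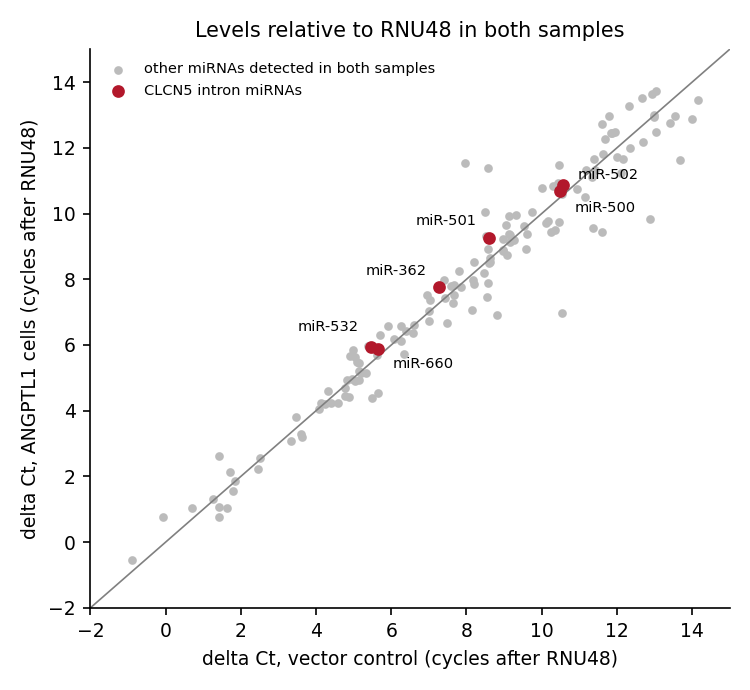
Delta Ct in ANGPTL1 cells (y axis) against delta Ct in the control (x axis), both in cycles after RNU48, for the 145 miRNAs detected in both samples; the line marks equal delta Ct. The 6 named points all lie just above the line, on the side of less miRNA in ANGPTL1 cells, and range from 5.46 to 10.56 on the control axis.

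Other miRNAs of the X chromosome did not show the same sign throughout. Of 19 names listed from 8 other X loci, 16 were measured, by 17 assays, of which 10 counted as detected in both samples, 1 in the control only and 6 in neither. These 10 had a median log2 ratio of 0.23, with 4 below 0 and none past 2-fold in either direction. miR-222 and miR-221, neighbours on the short arm, stood at -0.36 and 0.25, miR-98 in an intron of HUWE1 at 0.21, and miR-361 in an intron of CHM at 0.69.

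By distance between the 2 delta Ct values of a miRNA and the median delta Ct of the members, 8.51 in ANGPTL1 cells and 7.93 in the control, the 5 nearest other miRNAs were miR-148b, miR-378, miR-18a, miR-20b and miR-23a. This likeness rests on 2 samples only. miR-148b (0.28 cycles away) and miR-378 (0.29 cycles away) had log2 ratios of -0.32 and -0.44, whereas miR-18a, miR-20b and miR-23a were at 0.21, 0.28 and 0.10.

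The size of the difference depended on the reference used, although its spread over the 6 did not. No reference RNA other than RNU48 was tried. Without normalization the log2 ratios ran from -1.09 (miR-501) to -0.63 (miR-500), with a median of -0.81, because RNU48 itself was 0.42 cycles later in ANGPTL1 cells. All 6 were then at least 1.5-fold lower, as were 39.3% of the 145, and miR-501 was at least 2-fold lower, as were 20.0%. A ratio below 0 was found for 79.3% of the 145 without normalization, and their median was -0.43. With the median cycle of each sample as reference, miR-501 was again the only member at least 2-fold lower, as were 21.4% of the 145. Set against the median of the 145, the median of the 6 differed by -0.38 log2 units with RNU48 and also without normalization. Neither this gap nor the spread over the 6 could change, because a reference shifts all ratios by the same amount. The authors' deposited table of fold changes gives 0.629 for miR-501 and 0.865 for miR-500, the 2 extremes.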

How the data were processed

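RNA samples of 2 kinds were measured, 1 per group, on a TaqMan array card (human miRNA panel, version 1.0), from 500 ng of total RNA with 40 PCR cycles, per the labels' protocols. The deposited threshold cycles and delta Ct values (scores with no fixed range) were averaged by the authors, per the file headers. No source used here gives the wells per assay, the threshold setting or the analysis software. The authors made delta Ct by subtracting the Ct of RNU48 and deposited a fold change, the ratio of the linear levels of ANGPTL1 cells over control, per the file headers. A value of 40 was read as no amplification. Depth is not defined for cycles, and the number of wells and samples limits the precision.

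The log2 ratio was the control's delta Ct less that of ANGPTL1 cells, so positive means more miRNA in ANGPTL1 cells (python 3.11.15, numpy 2.4.6, pandas 2.3.3), for assays below cycle 35 in both samples. The calculation was tested on simulated data. Another 2 columns of per-sample values, delta Ct on a linear scale, were not used. All assays of the 6 names, lists of other clusters and X loci, and the 5 nearest miRNAs were named. Edit distance counts substitutions, insertions and deletions. The members and lists were chosen with earlier results of these data known. Alternatives were other references, detection limits, fold sizes and the authors' table.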

Additional observations from a re-analysis of the deposited data

How the results depend on the processing

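Every log2 ratio of the 6 miRNAs stayed below 0 under each reference tried. Among the 145 miRNAs detected in both samples, ratios below 0 made up 50.3% with RNU48 and 79.3% without normalization. That share was not computed for the other references. The cluster median was -0.81 without normalization and -0.86 with the median cycle of each sample as reference (29.20 in ANGPTL1 cells and 29.25 in the control). With 2 references added after the data were seen, it was -0.40 (mean cycle of each sample) and -0.38 (median log2 ratio set to 0). A reference shifts all ratios by 1 constant, so the range stayed at 0.46. The count at least 2-fold lower was 0 in the main analysis (4.83% of the 145). It was 1 without normalization (20.0%), 1 with the median cycle (21.4%) and 1 with a 1.5-fold size (19.3%), miR-501 each time. Detection below cycle 32 dropped miR-502, and the median was then -0.47. The delta Ct range became 4.82 in ANGPTL1 cells and 5.02 in the control. Limits of 38 or none, and the authors' table, gave the same values. Leaving out 1 member moved the median to between -0.47 and -0.31. miR-188 could not be added, because no assay of that name was found. With single samples, leaving out a replicate was not an option. No paired analysis was possible because there is only 1 sample of each kind.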
